A study of Arabidopsis thaliana with 9 samples.

Results

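The 9 genes described here encode the enzymes that build the core of indole glucosinolates from tryptophan in Arabidopsis thaliana. They were chosen by locus identifier as CYP79B2 (AT4G39950), CYP79B3 (AT2G22330), CYP83B1 (AT4G31500), GSTF9 (AT2G30860), GSTF10 (AT2G30870), GGP1 (AT4G30530), SUR1 (AT2G20610), UGT74B1 (AT1G24100) and SOT16 (AT1G74100). These are 9 of the 33323 genes in the deposited tables, and all 9 passed the filter on low counts. RNA-seq was done on whole rosettes without roots from plants aged 23 days, in 3 genotypes with 3 libraries each. The groups were wild type of the accession Col-0, the mutant line jazQ in Col-0, and the mutant line jazD, whose accession is given as Col-0 followed by an asterisk with no explanation. As background, the JAZ10, JAZ9, JAZ4, JAZ3 and JAZ1 genes are mutated in jazQ, and those together with JAZ2, JAZ5, JAZ6, JAZ7 and JAZ13 are mutated in jazD. A JAZ protein is a repressor that holds jasmonate-responsive transcription factors such as MYC2 inactive until the hormone jasmonate triggers its degradation. About 20 rosettes were pooled per library, and wild type and mutants shared trays. Each line stands for 1 combination of alleles, so the effect of a single JAZ gene cannot be told apart. The comparisons of the lines ask how expression shifts as more of these repressors are missing.

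Glucosinolates are sulfur-rich defence compounds of the cabbage order that release toxic products when damaged tissue brings them together with myrosinase enzymes. Those of the indole class start from tryptophan. The cytochromes P450 CYP79B2 and CYP79B3 turn tryptophan into indole-3-acetaldoxime, and CYP83B1 oxidises that oxime to a reactive intermediate. A glutathione S-transferase, for which GSTF9 and GSTF10 are the proposed enzymes, joins the intermediate to glutathione. GGP1, a gamma-glutamyl peptidase, trims the conjugate, the C-S lyase SUR1 releases a thiol, UGT74B1 adds glucose and SOT16 adds sulfate. GGP1, SUR1 and UGT74B1 also serve the aliphatic class, which is made mainly from methionine, whereas CYP79F1, CYP79F2 and CYP83A1 take the P450 steps of that class.

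The members lie on chromosomes 1, 2 and 4. GSTF9 and GSTF10 are neighbours on the same strand of chromosome 2, and SOT16 lies next to SOT18, the aliphatic sulfotransferase gene, on the opposite strand. CYP79B2 lies next to APK2, which the reference names AKN2 and which encodes a kinase that makes the sulfate donor. The 250 bases before the annotated start of each member were read by gene identifier from the genome TAIR10.1 with its RefSeq annotation. Those of 4 genes are shown. CYP79B2, at chr4:18524792-18525041 on the + strand, and CYP79B3, at chr2:9488163-9488412 on the + strand, are shown because they share a stretch. GSTF10, at chr2:13141040-13141289 on the + strand, and SUR1, at chr2:8880441-8880690 on the - strand, are shown because they are the members that hold the G-box CACGTG or its variant CACATG, and because GSTF10 rose in jazD while SUR1 was not called. All are written 5′ to 3′ on the strand of the gene. Capitals mark the shared stretch in CYP79B2 and CYP79B3, a CACATG in GSTF10, and in SUR1 first ACCAAAC, then CACGTG and last GTTAGGT.
CYP79B2: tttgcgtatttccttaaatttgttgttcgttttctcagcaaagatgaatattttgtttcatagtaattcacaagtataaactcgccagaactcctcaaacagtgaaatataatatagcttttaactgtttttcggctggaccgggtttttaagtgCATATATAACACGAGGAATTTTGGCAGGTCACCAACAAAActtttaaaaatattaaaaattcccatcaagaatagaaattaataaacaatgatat
CYP79B3: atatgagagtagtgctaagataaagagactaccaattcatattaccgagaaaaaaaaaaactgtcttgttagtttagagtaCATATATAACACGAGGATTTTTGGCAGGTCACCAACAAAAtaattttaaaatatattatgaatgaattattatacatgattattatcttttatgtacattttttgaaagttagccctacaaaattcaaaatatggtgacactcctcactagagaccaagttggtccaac
GSTF10: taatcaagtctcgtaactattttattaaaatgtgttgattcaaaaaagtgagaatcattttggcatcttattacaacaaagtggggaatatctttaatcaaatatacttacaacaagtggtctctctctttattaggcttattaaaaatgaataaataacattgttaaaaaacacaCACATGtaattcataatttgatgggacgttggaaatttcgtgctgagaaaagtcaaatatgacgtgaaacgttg
SUR1: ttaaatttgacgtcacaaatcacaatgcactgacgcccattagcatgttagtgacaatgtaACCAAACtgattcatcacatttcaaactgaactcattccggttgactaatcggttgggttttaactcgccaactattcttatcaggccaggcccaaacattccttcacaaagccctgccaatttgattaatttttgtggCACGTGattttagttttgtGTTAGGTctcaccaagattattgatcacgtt

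The stretch in capitals in the 2 tryptophan-oxidising P450 genes is 40 bases long and differs at 1 base, A18T, with the base of CYP79B2 first and positions counted from the 5′ end of the stretch. It runs from 95 to 56 bases before the start of CYP79B2 and from 169 to 130 bases before that of CYP79B3. Within it, the exact run TTTTGGCAGGTCACCAACAAAA of 22 bases occurs in 2 of the 27443 promoter windows of the same length in the genome, those of these 2 genes. In the other pairs of members, compared only as written 5′ to 3′ on the strand of each gene, the longest exact run was at most 14 bases. Motifs were searched on both strands. The G-box CACGTG, a site that MYC factors are known to bind, was found in 1 of 9 members, SUR1, against 6.49% of all windows. Its variant CACATG was found in 1 of 9, GSTF10, against 11.1% of all windows. The MYB elements ACCAAAC or ACCAACC, and their forms ACCTAAC or ACCTACC, counted as 1 motif, were found in 3 of 9 members, SUR1, UGT74B1 and SOT16, against 13.7% of all windows, and in 3 of the 8 aliphatic counterparts named below. None of the matches in the members overlapped another. These windows hold only the bases nearest to the start.

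Total counts ran from 15370271 to 20730459 per library, and the lowest count of a member in a library was 530. Replicates of a group differed by more than sampling noise. Values are CPM (counts scaled to a common library size) on a scale fitted across libraries. Changes are log2 fold changes ± SE from 1 fit to 19405 tested genes. Called means an adjusted p under 0.05. The rosettes had the markers of leaves. The sum over 5 mesophyll markers was 38328 to 48467 CPM in each library, and the sum over 6 root markers was at most 0.972 CPM, with EXPA7 and RHD6 at 0 in each library. No member shared a 50-base stretch of its transcripts with another annotated gene. The annotated end of GSTF10 overlaps that of AT2G30880 on the opposite strand.

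In jazD, 8 of 9 members were called higher than in Col-0 and 0 lower, where 13.3% of all genes tested were called higher. The median log2 fold change of the members was 1.34, against -0.00 over all genes tested. The steps rose unevenly. The entry P450 gene CYP79B3 rose most against Col-0, at 5.34-fold, and GSTF10, CYP79B2, CYP83B1, GSTF9 and GGP1 rose between 2.13-fold and 3.90-fold. The later steps moved less, with SOT16 at 1.68-fold, UGT74B1 at 1.26-fold and SUR1 at 1.08-fold without a call. In jazD against jazQ, 7 of 9 members were called higher and 0 lower, where 15.0% of all genes tested were called higher, with a median of 1.08. In jazQ against Col-0, 2 of 9 were called higher and 0 lower, where 0.861% of all genes tested were called higher, with a median of 0.21. For the 0 called lower by edgeR, the counts by DESeq2 and limma-voom were also 0, and those at an unadjusted p under 0.05 were 0 in jazD against either group and 2 in jazQ against Col-0. Both mutant lines were compared with the same Col-0 libraries. In bulk RNA of whole rosettes, more cells that express a gene and more transcript per cell cannot be told apart.

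**Figure D1:**
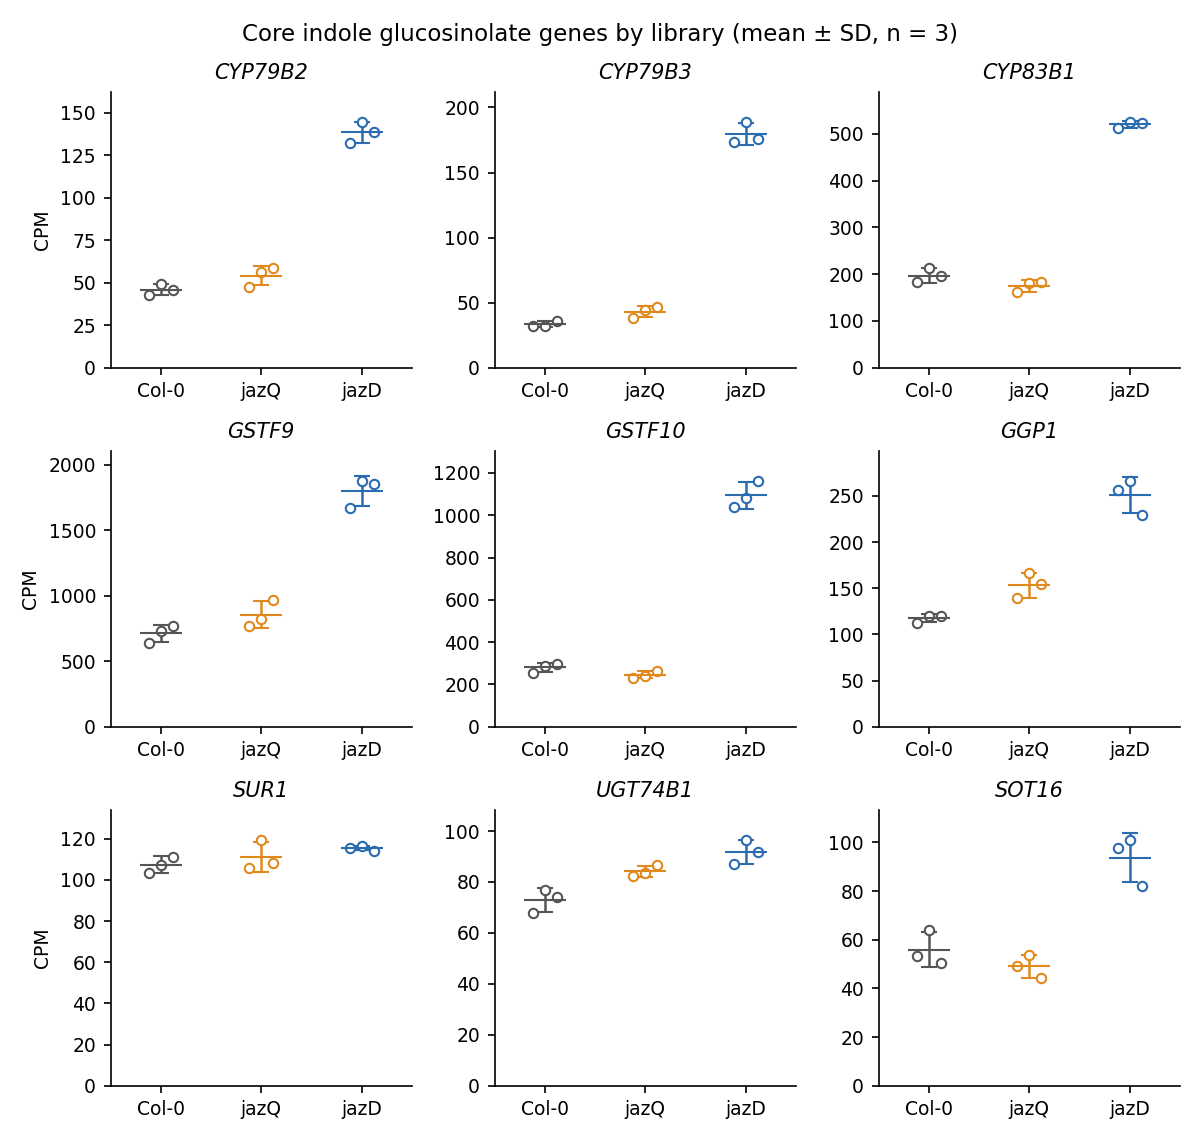
CPM of the 9 core genes (linear axes from 0, one panel a gene) in each library of Col-0, jazQ and jazD, with open points for libraries and bars for mean ± SD (n = 3). The jazD libraries lie above all others for each gene but SUR1, whose jazD libraries overlap the jazQ libraries.

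The first step is taken by CYP79B3 and CYP79B2. CYP79B3 stood at 32.4, 32.4 and 36.0 CPM in Col-0 replicates 1 to 3, at 38.3, 44.7 and 46.4 CPM in jazQ, and at 173, 189 and 176 CPM in jazD. The 3 groups did not overlap. Its log2 fold change in jazD was 2.42 ± 0.08 against Col-0 (adjusted p = 1.82e-10) and 2.05 ± 0.08 against jazQ (adjusted p = 7.08e-10). In jazQ it was 0.36 ± 0.08 above Col-0 on the log2 scale (adjusted p = 0.0465), a call that was lost in 11 of the 18 alternative settings, at values of 0.30 to 0.37 for those settings. The libraries whose omission ended the call were Col-0 replicates 1 and 2, jazQ replicates 2 and 3, and each jazD replicate. The jazD libraries are part of the same fit.

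CYP79B2, which makes the same oxime, stood at 42.7, 49.2 and 45.7 CPM in Col-0, at 47.6, 56.0 and 58.4 CPM in jazQ, and at 132, 145 and 138 CPM in jazD. The jazD libraries lay above all others, and those of jazQ overlapped those of Col-0. The change in jazD was 1.59 ± 0.08 against Col-0 (adjusted p = 1.33e-08) and 1.36 ± 0.08 against jazQ (adjusted p = 5.97e-08), and in jazQ it was 0.24 ± 0.08 (adjusted p = 0.235). The order of the 2 genes differed between the groups. Within a library, the log2 ratio of CYP79B2 to CYP79B3, in TPM (a level corrected for transcript length) plus 1, was 0.31, 0.51 and 0.25 in Col-0, 0.23, 0.24 and 0.25 in jazQ, and -0.46, -0.46 and -0.42 in jazD. The difference of the means between jazD and Col-0 was -0.80, with an exact 2-sided permutation p of 0.1, the smallest that 3 against 3 libraries can give.

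CYP83B1, the next P450, stood at 183, 213 and 195 CPM in Col-0, at 161, 181 and 183 CPM in jazQ, and at 512, 526 and 524 CPM in jazD. The jazD libraries lay far above the rest, and the other groups overlapped. Its change was 1.40 ± 0.07 in jazD against Col-0 (adjusted p = 9.65e-09), 1.57 ± 0.07 in jazD against jazQ (adjusted p = 3.42e-09), and -0.17 ± 0.07 in jazQ against Col-0 (adjusted p = 0.328).

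The neighbouring transferase genes differed from each other. GSTF10 stood at 255, 288 and 298 CPM in Col-0, at 231, 242 and 265 CPM in jazQ, and at 1037, 1083 and 1164 CPM in jazD, with a change of 1.96 ± 0.08 in jazD against Col-0 (adjusted p = 8.70e-10) and of 2.15 ± 0.08 against jazQ (adjusted p = 3.72e-10), the highest of the members in that comparison. GSTF9 stood at 643, 730.4 and 767 CPM in Col-0, at 770.4, 820.4 and 969.6 CPM in jazQ, and at 1671, 1880 and 1856 CPM in jazD, with a change of 1.34 ± 0.09 (adjusted p = 3.73e-07). Both were high in each jazD library with no overlap with the other groups. In jazQ, GSTF9 lay above each Col-0 library at 0.26 ± 0.09 (adjusted p = 0.256), and GSTF10 overlapped Col-0 at -0.19 ± 0.08 (adjusted p = 0.321), so neither was called. The mean log2 ratio of GSTF9 to GSTF10 within a library was 1.39 for Col-0, 1.83 for jazQ and 0.77 for jazD, with no overlap between the libraries of any 2 groups (exact permutation p = 0.1 in each comparison).

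GGP1, the peptidase, rose in both lines. It stood at 112, 120.0 and 120.2 CPM in Col-0, at 139, 166 and 155 CPM in jazQ, and at 256, 267 and 229 CPM in jazD. The 3 groups did not overlap. The change was 1.09 ± 0.08 in jazD against Col-0 (adjusted p = 2.70e-07), 0.71 ± 0.08 in jazD against jazQ (adjusted p = 1.45e-05) and 0.38 ± 0.08 in jazQ against Col-0 (adjusted p = 0.0254). The last call was lost in 6 of 18 settings, the 2 fits on TPM and those that left out Col-0 replicate 1 or 2, or jazQ replicate 2 or 3, at values from 0.32 to 0.40.

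SUR1, the C-S lyase, is the member that was called in no comparison. It stood at 103, 107 and 111 CPM in Col-0, at 106, 119.6 and 108 CPM in jazQ, and at 116, 116 and 114 CPM in jazD. The jazD libraries lay just above those of Col-0 and within the range of jazQ. The change in jazD against Col-0 was 0.11 ± 0.06 (adjusted p = 0.233) and stayed between 0.03 and 0.13 in the 18 alternative settings. The changes in jazQ against Col-0 and in jazD against jazQ were 0.05 ± 0.06 (adjusted p = 0.779) and 0.05 ± 0.06 (adjusted p = 0.563).

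The glucose and sulfate steps moved by less than the early ones. UGT74B1 stood at 67.6, 76.7 and 74.3 CPM in Col-0, at 82.2, 83.6 and 86.5 CPM in jazQ, and at 87.2, 96.7 and 91.6 CPM in jazD. The groups did not overlap, but only the change in jazD against Col-0 was called, at 0.33 ± 0.06 (adjusted p = 0.00199). The change in jazQ against Col-0 was 0.21 ± 0.06 (adjusted p = 0.182) and that in jazD against jazQ was 0.13 ± 0.06 (adjusted p = 0.164). SOT16 stood at 53.2, 64.2 and 50.6 CPM in Col-0, at 49.0, 53.9 and 44.3 CPM in jazQ, and at 97.8, 101 and 82.2 CPM in jazD. Each jazD library lay above all others, while jazQ overlapped Col-0. Its change was 0.74 ± 0.11 in jazD against Col-0 (adjusted p = 3.88e-04), 0.94 ± 0.11 in jazD against jazQ (adjusted p = 6.84e-05) and -0.19 ± 0.11 in jazQ against Col-0 (adjusted p = 0.533).

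Counted by libraries, all 9 members had no overlap and higher values in jazD against Col-0, where 21.4% of all genes tested did. In jazD against jazQ it was 8 of 9, where 22.3% of all genes did, and in jazQ against Col-0 it was 4 of 9, where 9.00% did. The 4 were CYP79B3, GSTF9, GGP1 and UGT74B1.

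**Figure D2:**
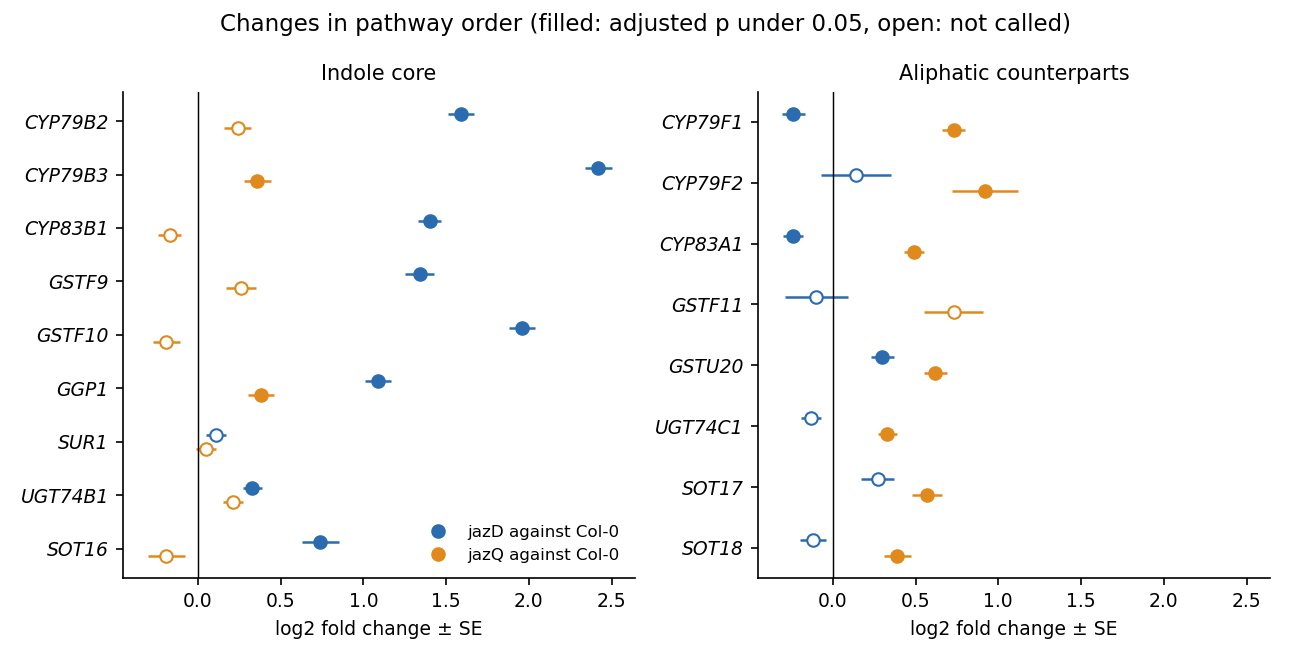
Log2 fold change ± SE against Col-0 (linear axis) for the 9 core genes in pathway order, left, and for 8 genes of the aliphatic class, right, in jazD (blue) and jazQ (orange). Filled points were called and open points were not. In jazD the left panel spans 0.11 to 2.42 and the right panel -0.24 to 0.30, while in jazQ they span -0.19 to 0.38 and 0.33 to 0.92.

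Per length, the transferases made up most of the core transcripts. The TPM values of the 9 members summed to 1724, 1946 and 2014 in Col-0, to 1842, 2133 and 2230 in jazQ, and to 4556, 4915 and 5017 in jazD. The jazD mean of 4829 ± 242 (SD, n = 3) was 2.55 times the Col-0 mean of 1894 ± 152 (SD, n = 3). GSTF9 held 51.4% of the sum in Col-0 and 48.4% in jazD, and GSTF10 went from 19.6% to 28.4%. SUR1 went from 4.42% in Col-0 to 1.77% in jazD, and CYP79B3 from 1.22% to 2.44%.

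The order of the levels differed between Col-0 and jazD. In Col-0 it was GSTF9, at a mean of 974 TPM, then GSTF10 at 371, GGP1 at 151, CYP83B1 at 147, SUR1 at 83.8, UGT74B1 at 60.5, SOT16 at 54.3, CYP79B2 at 30.0 and CYP79B3 at 23.2 TPM. Of the neighbours in that order, GGP1 and CYP83B1 overlapped between libraries, as did UGT74B1 and SOT16. The same order held in jazQ, with an overlap between CYP79B2 and CYP79B3. In jazD, GSTF9 at 2335 TPM and GSTF10 at 1373 TPM still led, CYP83B1 at 369 passed GGP1 at 305, and CYP79B3 moved from the ninth to the fifth place at 118 TPM. SOT16 at 86.3, CYP79B2 at 85.9 and SUR1 at 85.6 TPM overlapped each other, but not CYP79B3 above them or UGT74B1 below. UGT74B1 was the lowest at 72.4 TPM.

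The genes that take the same steps in the aliphatic class were set beside the members. They are CYP79F1, CYP79F2, CYP83A1, GSTF11, GSTU20, SOT17, SOT18 and UGT74C1, a name from general knowledge for AT2G31790, which the tables annotate as a UDP-glycosyltransferase. In jazQ 7 of these 8 were called higher than in Col-0 and 0 lower, where 0.861% of all genes were called higher and 0.412% lower. Their median was 0.59 against -0.01 over all genes tested. In jazD 1 was called higher and 2 lower than in Col-0, with a median of -0.11. There 13.3% of all genes were called higher and 12.5% lower. In jazD against jazQ, 0 were called higher and 8 of 8 lower, with a median of -0.62. There 15.0% of all genes were called higher and 13.8% lower.

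CYP79F1, the main entry enzyme of the aliphatic class, stood at 165, 168 and 179 CPM in Col-0, at 253, 304 and 293 CPM in jazQ, and at 140.0, 146 and 149 CPM in jazD. It was highest in jazQ and lowest in jazD, with no overlap between groups. The change was 0.73 ± 0.07 in jazQ against Col-0 (adjusted p = 1.28e-04) and -0.24 ± 0.07 in jazD against Col-0 (adjusted p = 0.0258). CYP83A1, which oxidises the aliphatic oximes, changed by 0.49 ± 0.06 in jazQ (adjusted p = 0.00126) and by -0.24 ± 0.06 in jazD (adjusted p = 0.0129). GSTU20, a transferase proposed for this class, was called higher in both, at 0.62 ± 0.07 in jazQ and 0.30 ± 0.07 in jazD. The other 4 genes called in jazQ were CYP79F2 at 0.92 ± 0.20, SOT17 at 0.57 ± 0.09, SOT18 at 0.39 ± 0.08 and UGT74C1 at 0.33 ± 0.06. GSTF11, at 0.73 ± 0.18, was not called in jazQ (adjusted p = 0.109), and 89.3% of the 50-base stretches of its transcripts are shared with AT3G03200 on the opposite strand, so its value is uncertain. UGT74C1 shares 13.6% of its stretches with AT2G08470, so reads may be split between them.

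Several of these calls changed when a single library was left out. The number called higher in jazQ was 4 to 8 of 8 over the 18 settings, with 4 without Col-0 replicate 1. Without that library UGT74C1 was at 0.31 and not called. The call of SOT18 was lost when Col-0 replicate 1 or 2, jazQ replicate 2 or 3, or any jazD replicate was left out, at 0.33 to 0.39, and that of CYP79F2 when it was either of the same Col-0 or jazQ replicates or jazD replicate 2 or 3, at 0.79 to 0.93. GSTF11 gained a call without Col-0 replicate 3, at 0.93, or jazQ replicate 1, at 0.87. In jazD against Col-0, the call of CYP79F1 was lost when Col-0 replicate 2 or 3 or jazD replicate 1 or 2 was omitted, at -0.24 to -0.20, and that of CYP83A1 without Col-0 replicate 3, at -0.19, or jazD replicate 2, at -0.23. SOT17, at 0.27 ± 0.10 (adjusted p = 0.0522), was called without Col-0 replicate 2, at 0.34, or jazQ replicate 1 or 2, at 0.27 and 0.28. In jazD against jazQ, SOT17 was not called when jazQ replicate 2 or 3 or any jazD replicate was left out, at -0.32 to -0.22.

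The balance between the classes was also read within each library, where no scaling between libraries is needed. The log2 ratio of the indole to the aliphatic gene, in TPM plus 1, was computed for 8 pairs at the same step. It was higher in each jazD library than in each Col-0 library for 8 of 8 pairs, and lower in each jazQ library than in each Col-0 library for 8 of 8. Each comparison had an exact 2-sided permutation p of 0.1, which is also 0.1 after Benjamini-Hochberg adjustment over the 10 pairs computed, so none can pass a threshold of 0.05 with 3 libraries a group. The pairs are not independent, as CYP79F1 and SOT16 recur among them, and a share over other pairs of genes was not computed. They include GSTF11, whose value is uncertain, and UGT74B1, which serves both classes. For UGT74B1 over UGT74C1 the difference in jazQ against Col-0 was -0.11, with a pooled SD of 0.06.

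The pair of CYP79B3 and CYP79F1 had the widest difference in jazD against Col-0 and against jazQ, at 2.60 and 2.98. The mean log2 ratio of CYP79B3 to CYP79F1 was -2.22 for Col-0, -2.60 for jazQ and 0.38 for jazD. The aliphatic gene was thus the more abundant per length in Col-0 and jazQ, and the indole gene in jazD. For CYP83B1 over CYP83A1 the means were -0.28, -0.94 and 1.36 in the same order, and for GSTF10 over GSTU20 they were -0.71, -1.51 and 0.96. CYP79B2 over CYP79F1 went from -1.87 in Col-0 and -2.36 in jazQ to -0.07 in jazD. The smallest difference was that of the glucosyltransferases, where UGT74B1 over UGT74C1 went from 0.11 in Col-0 to 0.56 in jazD.

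**Figure D3:**
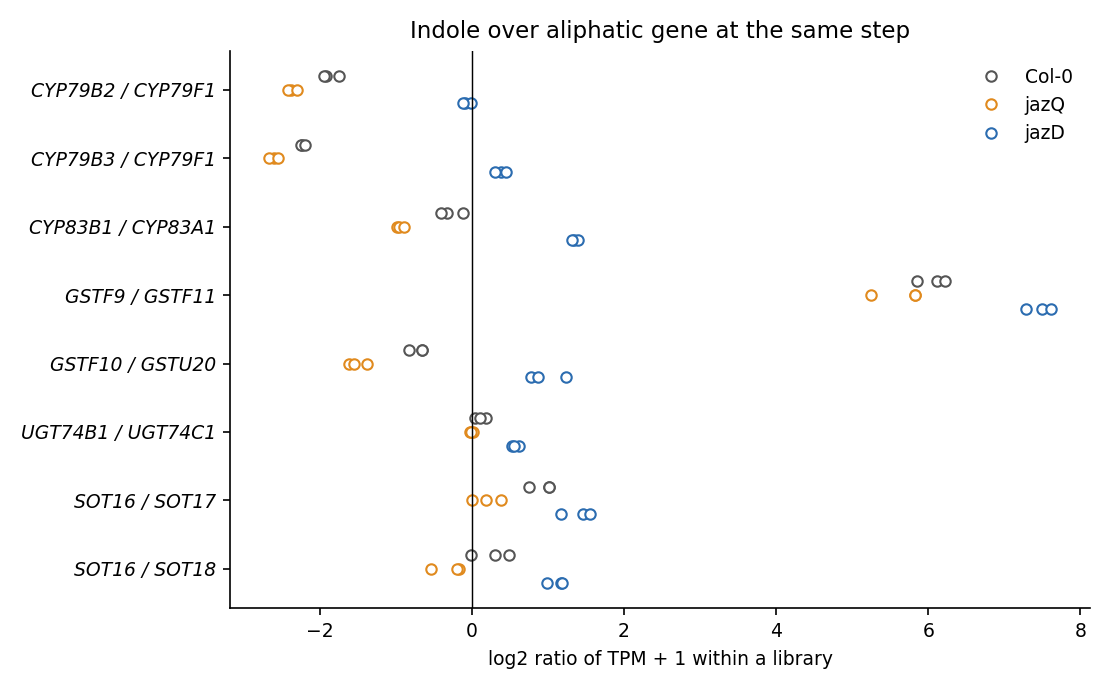
Log2 ratio of TPM + 1 of the indole gene to the aliphatic gene at the same step within each library, for 8 pairs and 9 libraries (points), with 0 for equal levels. In each row the 3 jazD points (blue) lie to the right of Col-0 (grey) and the 3 jazQ points (orange) to the left.

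Genes that feed the core were read next. Of 12 genes of tryptophan synthesis, 8 were called higher in jazD than in Col-0 and 3 lower, with a median of 1.36, where 13.3% of all genes tested were called higher and 12.5% lower. The 3 lower, named after their values were seen, were ASB2 at -0.44 ± 0.14, PAI1 at -0.37 ± 0.12 and ASA2 at -0.23 ± 0.06. Of the 50-base stretches of ASB2 and PAI1, 25.2% and 50.9% are shared with other genes, so reads may be split. The same limit holds for other genes of this list, with shares of 62.2% for PAI2, 42.8% for ASB1 and 12.3% for PAT1. The number called lower was 0 without Col-0 replicate 3, 1 without Col-0 replicate 1 or any jazD replicate and 2 without Col-0 replicate 2. In jazQ edgeR called 0, with 2 higher and 1 lower at an unadjusted p under 0.05, and DESeq2 and limma-voom called 0. The 3 with the smallest p in jazD against Col-0 were TSB1, PAT1 and TSA1. TSB1, for the beta subunit of tryptophan synthase, rose by 2.26 ± 0.08. PAT1, for the transferase that follows anthranilate synthase, rose by 2.01 ± 0.06, and TSA1, for the alpha subunit, by 1.93 ± 0.08. Mean levels of the 3 were 212, 85.2 and 65.7 CPM in Col-0 and 1015, 343 and 250.3 CPM in jazD. Of 12 genes that supply the sulfate donor and glutathione, 9 were called higher in jazD than in Col-0 and 0 lower, with a median of 0.63 and the same background. In jazQ edgeR called 0, with 7 higher and 1 lower at an unadjusted p under 0.05, and DESeq2 called 1 higher and limma-voom 0. GSH2, for glutathione synthetase, rose by 1.21 ± 0.07 in jazD against Col-0. PAPST1, a carrier of the sulfate donor that the tables name TAAC, rose there by 1.11 ± 0.08. The ATP sulfurylase gene APS3 rose there by 0.91 ± 0.07.

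Genes that act on the product or belong to other routes from the oxime were set against the same background of 13.3% called higher in jazD. Of 9 genes of indole ring modification, 7 were called higher in jazD and 0 lower, with 6 to 7 higher over the 18 alternative settings. In jazQ edgeR called 0, with 1 higher and 1 lower at an unadjusted p under 0.05, and DESeq2 and limma-voom called 0. IGMT1 and IGMT4, for indole glucosinolate methyltransferases, rose by 2.70 ± 0.16 and 1.14 ± 0.08 in jazD. CYP81F2, which hydroxylates the ring, rose there by 2.07 ± 0.21. IGMT1 and IGMT4 share 12.1% and 9.28% of their 50-base stretches with gene copies nearby, so reads may be split between them. The shares were 34.3% for IGMT2 and 42.6% for IGMT3. CYP81F1 and CYP81F4 share 95.5% and 85.1% of theirs with another annotated gene, so their values are uncertain. Of 9 tested genes in other routes from the oxime, 8 were called higher in jazD and 0 lower. The number called higher was 7 to 9 over the 18 alternative settings. Among the 8 were the P450 gene CYP71A12 at 1.96 ± 0.20 and the nitrilase genes NIT3 at 1.50 ± 0.17 and NIT1 at 0.69 ± 0.06. NIT1 was the 1 gene of that list called in jazQ, at 0.43 ± 0.06.

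Of 7 genes of transport and breakdown, 6 were called higher in jazD and 0 lower, with 5 to 6 higher over the 18 alternative settings. In the lists around the core for which edgeR called 0 lower in jazD against Col-0, 0 were lower at an unadjusted p under 0.05 or by DESeq2 or limma-voom. The myrosinase genes TGG1 and TGG2 rose in both lines, by 0.69 ± 0.06 and 1.10 ± 0.08 in jazD and by 0.82 ± 0.06 and 1.16 ± 0.08 in jazQ, and were the 2 genes of the list called in jazQ. PEN3, for a transporter of the plasma membrane, rose by 0.79 ± 0.06 in jazD. Of 3 related enzymes outside the core, GSTU13 rose by 1.35 ± 0.06 in jazD, GGP3 was at -0.07 ± 0.10 (adjusted p = 0.687) and CYP79A2 did not pass the filter on low counts.

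Of 8 regulators of these genes, 6 were called higher in jazD than in Col-0 and 0 lower, against 13.3% of all genes called higher. The number called higher was 5 to 6 over the 18 alternative settings. In jazQ edgeR called 0, with MYC2 alone at an unadjusted p under 0.05 and called by DESeq2, while limma-voom called 0. MYC2, whose protein is bound by JAZ repressors, stood at 28.7, 34.6 and 36.8 CPM in Col-0, at 42.4, 84.5 and 56.7 CPM in jazQ, and at 123, 149 and 136 CPM in jazD, so that the groups did not overlap. Its change was 2.03 ± 0.25 in jazD (adjusted p = 0.00102) and 0.88 ± 0.25 in jazQ (adjusted p = 0.21), the latter called without jazQ replicate 1, at 1.08. The reference places AT1G32630 on the opposite strand over 98.5% of the stretches of MYC2, so reads of the 2 genes may be mixed. MYC3, a related factor, rose by 0.46 ± 0.08 in jazD. MYB122, a regulator of indole glucosinolate genes, had 10 counts in all over the Col-0 libraries, 3 over those of jazQ and 73 over those of jazD. It passed the filter on low counts only through jazD, where it is high, so its call is no support. Without it, 5 of 7 regulators were called higher in jazD. Its relatives MYB34 and MYB51, named here after their values were seen, rose in jazD by 1.01 ± 0.17 and 1.39 ± 0.21.

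**Figure D4:**
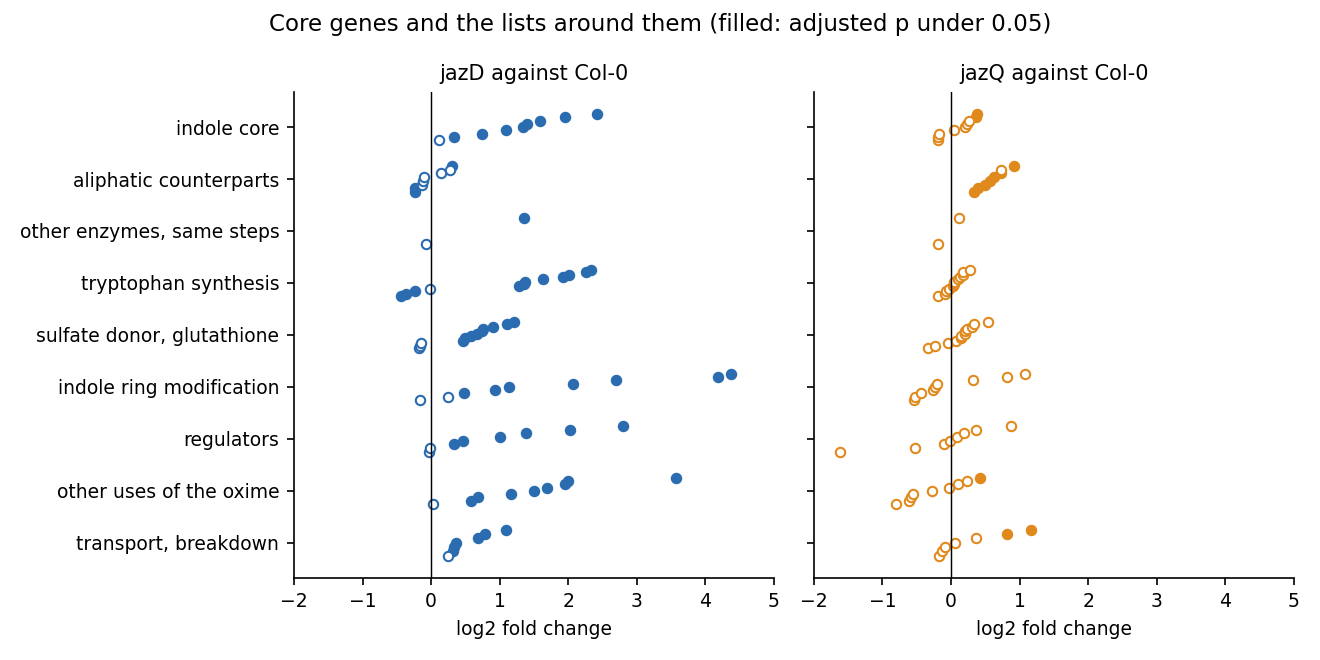
Log2 fold change against Col-0 (linear axis) of the tested genes of 9 lists, the 9 core genes in the top row, in jazD (left, blue) and jazQ (right, orange), with filled points for called genes and vertical spread for legibility. The core row holds 8 filled points in jazD and 2 in jazQ, and the row of aliphatic counterparts holds 3 in jazD and 7 in jazQ.

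The genes whose profile over the 9 libraries was most like the median of the members were EAT1, PSAT, AT2G03980, ASB1, GGT4, ATSMO1-3, FER1 and GSTU13, in this order. Likeness was the root mean square difference of log2 CPM, each gene taken relative to its Col-0 mean, and ran from 0.0890 for EAT1 to 0.116 for GSTU13. Among the members it ran from 0.0744 for GSTF9 to 0.718 for SUR1. EAT1, annotated as an ethylene-forming enzyme, had a mean of 202 ± 11.3 CPM in Col-0, 225 ± 6.16 CPM in jazQ and 486 ± 10.4 CPM in jazD (SD, n = 3). PSAT is a phosphoserine aminotransferase, and ASB1 a beta subunit of anthranilate synthase, of whose 50-base stretches 42.8% are shared with other genes.

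Markers of leaf cell types were read beside the core. Of 5 mesophyll markers, 2 were called lower in jazD than in Col-0, RCA at -0.50 ± 0.07 and CA1 at -0.42 ± 0.11, and the sum over the 5 was 41972 to 43784 CPM in Col-0, 40662 to 48467 CPM in jazQ and 38328 to 39336 CPM in jazD. Of 5 markers of the vasculature, where glucosinolate genes are often active, the smallest adjusted p against Col-0 was 0.114 in jazD and 0.41 in jazQ, with sums of 211 to 240.3, 224 to 252 and 202 to 232 CPM in the same order. Of 4 guard cell markers, 1 was called higher and 1 lower in jazD and 1 higher in jazQ, with sums of 42.9 to 50.8, 51.1 to 58.2 and 42.3 to 48.8 CPM. Of 4 trichome markers, 2 were called higher in jazD and 1 in jazQ, with sums of 14.8 to 16.8, 21.4 to 24.8 and 18.5 to 22.4 CPM. Of all genes tested, 13.3% were called higher and 12.5% lower in jazD, and 0.861% and 0.412% in jazQ, against Col-0. In jazD against jazQ, 3 mesophyll, 2 vasculature and 2 guard cell markers were called lower, where 13.8% of all genes were called lower. No marker of these 4 lists was called higher there, and no trichome marker was called. No marker of these 4 lists was at 0 in a group. The part of these differences in the values of the core genes was not tested.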

How the data were processed

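RNA-seq of rosettes gave 9 libraries in 3 groups, named by the sample titles. The authors deposited gene-level expected counts, for which the submitters' processing notes name RSEM 1.2.25 and the build TAIR10, and TPM values per gene, per the file headers. Expected counts divide reads among the genes they match. Not given in the sources used here are the aligner, annotation version and strandedness.

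After rounding, the counts went into edgeR 4.0.16 (R 4.3.3): filterByExpr on the groups (minimum count 10), TMM, a robust quasi-likelihood F test over all 9 libraries, and Benjamini-Hochberg adjustment over 19405 genes. The steps were tested on simulated data. Alternatives used DESeq2 1.42.0 and limma 3.58.1, other filters, fits of 2 groups, a replicate block, TPM plus 1 or 0.1, and omission of each library. Ratios used TPM plus 1 and an exact permutation test.

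The members and lists were chosen with earlier results of these data known. Besides the members, genes named are the 8 aliphatic counterparts, the 3 with the smallest p in jazD against Col-0 from each other list, neighbours on the chromosome, and the 8 nearest profiles. MYB34, MYB51, ASA2, ASB2, PAI1 and the markers named were picked after their values were seen. CYP81F1, CYP81F4, IGMT2, IGMT3 and PAI2 were named for their shared stretches. Names of 6 of the 98 listed identifiers came from general knowledge. Promoter windows came from TAIR10.1, found by gene identifier, as the tables hold no coordinates.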

Additional observations from a re-analysis of the deposited data

How the results depend on the processing

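The 8 members called higher in jazD against Col-0 and the 7 called higher in jazD against jazQ were 8 and 7 under each of the 18 alternatives, and 0 were called lower in any. The count in jazQ against Col-0, 2 as reported, was 1 with limma-voom, 1 when the fit held just the compared groups, 0 with either pseudocount on TPM and 0 to 2 when 1 library was left out. Genes called in jazQ against Col-0, 247 as reported, ranged from 136 to 367 when 1 library was left out, with 153 without Col-0 replicate 1, 136 without Col-0 replicate 2 and 163 without jazQ replicate 2. For jazD against Col-0 the range was 3728 to 5234, around 5006. No value changed sign where it was called. Of 306 values for member results that were called as reported, 289 kept the call and 17 lost it. Of 180 for results not called, 1 gained a call, GSTF9 in jazQ. The cause was not tested.

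With the replicate number as a block, 572 genes were called in jazQ against Col-0 and 3 members were higher there, GSTF9 in addition at an adjusted p of 0.0328. The labels do not say that a number marks a shared batch. The correlation of deviations was above 0 in 9 of 9 pairs of libraries with the same number (0.015 to 0.306, 6 over 0.1) and in 5 of 18 pairs with different numbers (-0.245 to 0.088), a hint of pairing from the data. Deviations sum to 0 within each group, so the correlations for same and for different numbers are not independent. Since not every pair was over 0.1, and Col-0 replicate 2 and jazQ replicate 2 each correlated better with replicate 3 of the other group, the fit without the block is the one reported.

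All changes rest on 3 pooled libraries a group, and permutation tests cannot go below 0.1. Each member had at least 530 counts in each library.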
